A study of Homo sapiens with 132 samples.

Results

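The 6 libraries described here are those of NCI-N87 cells sampled at 24 h and either left untreated (3 replicates) or treated with 0.5 μM afatinib (3 replicates). They were chosen by the labels for cell line, time and treatment, out of 132 libraries in the series, and libraries of trastuzumab + afatinib were not counted among them. NCI-N87 is an established gastric cancer cell line derived from a metastatic site, and the model is therefore 1 line in culture. All cells were seeded the day before treatment and given fresh medium before the drug was added. The afatinib solvent was not added to the untreated cells. Polyadenylated RNA was sequenced, and the deposited values are raw counts per gene. For comparison, the same treatment was taken at 4 h in NCI-N87 cells (6 libraries with untreated cells of their own) and at 24 h in the gastric cancer cell lines MKN7 and MKN1 (6 libraries each). Trastuzumab + afatinib at 24 h in NCI-N87 cells (5 μg/ml of the HER2 antibody with 0.5 μM afatinib, 3 libraries) was compared with afatinib directly. The fits also held libraries that were not compared. In NCI-N87 cells these had trastuzumab alone at 4 h and 24 h, and trastuzumab + afatinib at 4 h. In MKN7 and MKN1 at 24 h they had trastuzumab alone or with afatinib, and in MKN1 also EGF, the EGFR antibody cetuximab, or both.

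Afatinib is a small molecule that binds covalently in the kinase domains of EGFR, HER2 (gene ERBB2) and HER4 and thereby blocks signaling of the HER receptor family. These receptors pair with one another after ligand binding and pass the signal on through the MAPK cascade, which switches on immediate early genes and its own feedback inhibitors, and through PI3K and AKT, which keep the FOXO transcription factors out of the nucleus. NCI-N87 is known as a line with an amplified ERBB2 locus. Growth signals of this kind bring cells through G1, where cyclin D and its kinases release the E2F factors from RB so that the genes of DNA replication are transcribed.

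The 6 libraries held between 47085013 and 51709662 counts, so that the floor of 3 counts in a library was 0.058 to 0.0637 CPM (counts scaled to a fixed library total), which covers counting error only. Replicates of a group differed by at least 19.2 times the sampling noise, and none was counted as a copy of another. Protein-coding genes took 98.3% to 98.5% of the counts in untreated and 97.3% to 97.7% in afatinib-treated cells, and 23192 to 24112 genes against 24317 to 25245 genes had counts. TMM factors, which scale the libraries so that most genes are centred, were 0.927 to 0.967 in untreated and 1.08 to 1.17 in treated cells. Genes that define epithelial cells were expressed (summed level 18999 to 22213 CPM in untreated and 10378 to 12808 CPM in treated libraries, KRT8 and KRT18 making most of the difference). Markers of fibroblasts summed to 13.2 to 19.6 and 25.1 to 27.6 CPM, those of endothelial cells to 2.39 to 2.98 and 3.64 to 5.06 CPM, and those of leukocytes to 7.8 to 11.2 and 14 to 16 CPM. PDGFRA, THY1, KDR and CD68 had 0 counts in the 6 libraries. Levels below are TMM-normalized CPM, given in the order of replicates 1, 2 and 3, and fewer cells of a kind cannot be told apart from less RNA per cell in such bulk samples.

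After 24 h of afatinib treatment, genes of the MAPK output, of DNA replication and repair, of mitosis and of ribosome biogenesis were lower. FOXO and PI3K feedback genes, the death gene BMF and the death ligand TNFSF10 were higher. Of 19078 genes tested in edgeR's quasi-likelihood model, 3608 were higher (18.9%) and 2260 were lower (11.8%) after 24 h, with limits of 0.05 for the Benjamini-Hochberg p.adjust and of 1 for the size of the log2FC. This is 30.8% of all genes tested, and 61.5% of the calls were upwards. Scaling by library size alone moved the median log2FC of all genes from 0.03 to 0.29 and the share of upward calls to 77.1%, with 4768 genes higher and 1420 lower. The values of the 3 treated libraries lay wholly above or below those of the 3 untreated libraries for 12852 genes (67.4%), and 13752 (72.1%) were under the p.adjust limit whatever their log2FC. Each list of genes below is read against these shares.

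Direct readouts of MAPK activity had the lowest median among the lists examined. Of 9 MAPK output genes tested, 8 fell and 0 rose, with a median log2FC of -2.76. SPRY4 (ENSG00000187678, chromosome 5, 142310427 to 142326455 of GRCh38), a feedback inhibitor of receptor tyrosine kinase signaling, went from 22.3, 31.9 and 27.1 CPM in untreated cells to 0.548, 0.341 and 0.325 CPM. That is a log2FC of -6.04 (SE 0.16, adjusted p 5.6e-18), the largest fall under the naming rule, and the groups lie far apart. DUSP6 (chromosome 12, 89347232 to 89353271), the phosphatase that inactivates ERK, went from 33.1, 62.7 and 44.5 to 1.04, 0.933 and 1.2 CPM (log2FC -5.43). The ETS factor ETV5 went from 27.2, 35.4 and 36.6 to 1.57, 1.62 and 1.43 CPM (log2FC -4.41). CCND1, which encodes cyclin D1, fell by 2.03 and EPHA2, a receptor that EGFR signaling induces, fell by 2.76 on the log2 scale. EPHA4 was the list member that did not pass, at a log2FC of 0.59.

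Of 15 immediate early genes, 7 fell and 0 rose (median log2FC -0.88). EGR1, the zinc finger factor of the early growth response, had 135, 377 and 170 CPM in untreated and 6.01, 5.44 and 7.7 CPM in treated cells. Untreated replicate 2 stood well above the other untreated libraries, and the log2FC of -5.00 carries an SE of 0.42 (adjusted p 6e-10). The AP-1 component FOSL1 went from 81.8, 91.6 and 95 to 5.57, 4.02 and 5.43 CPM (log2FC -4.16), while JUN reached -0.85 and IER2 -0.52 without passing the limit. MYC had 333, 392 and 368 CPM before and 80.5, 83.1 and 112 CPM after treatment (log2FC -2.00, SE 0.09). Its antagonist MXD4, a repressor that competes for the partner MAX, rose from 23.2, 22 and 18.5 to 119, 127 and 130 CPM (log2FC 2.57). The other 11 genes of the MYC and MXD network did not pass the limits.

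**Figure D1:**
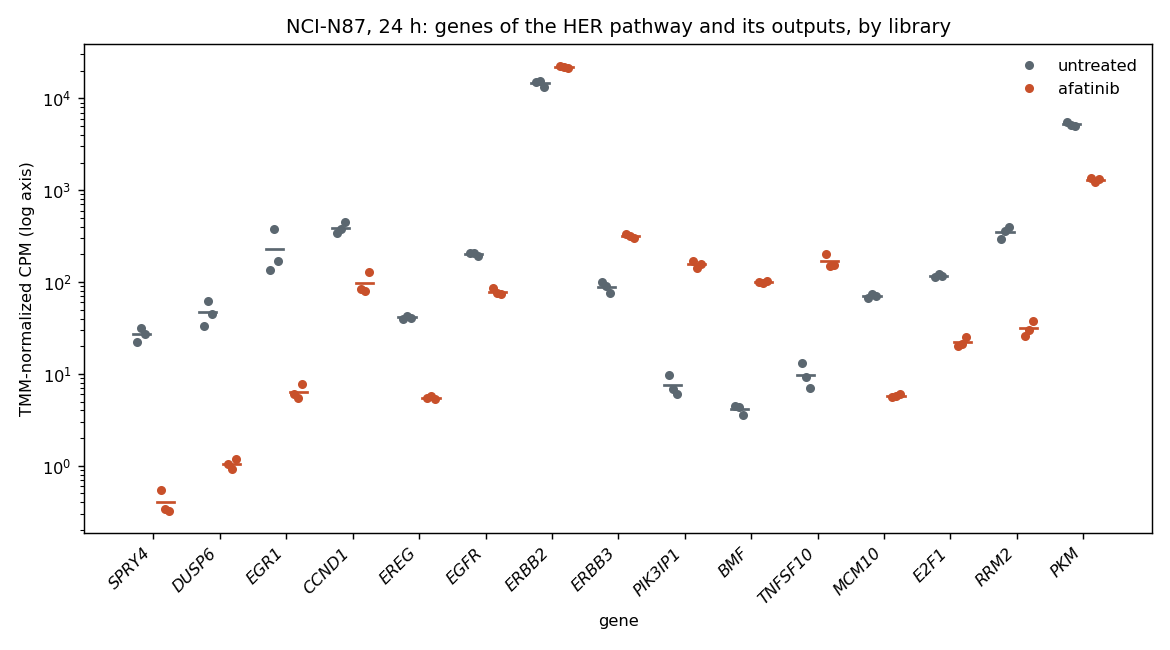
TMM-normalized CPM (log axis) of 15 genes in each untreated (grey) and afatinib-treated (orange) library of NCI-N87 cells at 24 h, with horizontal bars at the mean of 3 libraries. For each gene drawn the groups do not overlap, from SPRY4 near the bottom of the scale to ERBB2 at the top, and the untreated EGR1 libraries show the widest spread.

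The receptors and their ligands moved in both directions. ERBB2 (chromosome 17, 39687914 to 39730426) had 15031, 15566 and 13433 CPM in untreated and 22369, 21886 and 21143 CPM in treated cells. This difference (log2FC 0.57, SE 0.07, adjusted p 4e-07) did not overlap between groups but stayed under the log2FC limit. ERBB3 (chromosome 12, 56076799 to 56103505), the kinase-impaired partner of HER2, rose from 101, 89.9 and 76.5 to 336, 321 and 305 CPM (log2FC 1.86, adjusted p 2.4e-16). EGFR (chromosome 7, 55019021 to 55211628) fell from 206, 206 and 191 to 85.6, 75.6 and 73.6 CPM (log2FC -1.36). Of 11 ligands, 3 fell and 3 rose. Among those that fell, EREG went from 39.7, 42.7 and 41 to 5.43, 5.69 and 5.29 CPM, AREG fell by 2.33 and HBEGF by 2.22 on the log2 scale. TGFA was at a log2FC of -0.83. Of the 3 that rose, BTC (betacellulin) had 6.95, 7.84 and 6.57 CPM before and 16.9, 19.5 and 18.4 CPM after treatment (log2FC 1.35). The others had low levels. EPGN had 12, 7 and 11 against 27, 29 and 20 counts (log2FC 1.08, and 0.82 without replicate 2). NRG2 had 0.542, 0.305 and 0.733 against 1.17, 1.45 and 0.955 CPM (log2FC 1.20, and 0.77 without replicate 2). Both lost the call in a test against a fold change of 2 (glmTreat).

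Genes that neighbour ERBB2 on chromosome 17 did not move as a block. Of 13 tested, 6 rose and 0 fell, with a median log2FC of 0.94. GRB7, an adaptor that binds HER2, rose from 1872, 1497 and 853 to 5189, 4191 and 3952 CPM (log2FC 1.71), and its log2FC at 4 h was 1.51. MED1 and STARD3, which lie on the same amplified segment in many tumors, had log2FC values of -0.47 and -0.33, and CDK12 had -0.77 (1737, 1936 and 2081 against 1050, 1167 and 1154 CPM). The groups did not overlap for 12 of the 13 genes, where 67.4% of all genes tested did not overlap. ERBB2 and GRB7 were higher and CDK12 was lower in every treated library than in every untreated one. With library size alone 8 of the 13 rose.

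FOXO and PI3K feedback genes stood on the other side. Of 18 tested, 11 rose and 0 fell (median log2FC 1.65), and 9 of the 18 rose at 4 h. PIK3IP1 (ENSG00000100100, chromosome 22, 31281593 to 31292534), an inhibitor of the PI3K catalytic subunit, went from 9.82, 6.84 and 6.07 to 169, 144 and 156 CPM (log2FC 4.38, SE 0.12, adjusted p 6.8e-18). KLHL24 had 24.9, 24.5 and 19.5 CPM before and 145, 168 and 119 CPM after treatment (log2FC 2.64). The atypical cyclin CCNG2 rose by a log2FC of 2.59 and the ubiquitin ligase subunit FBXO32 by 2.46, both well known FOXO targets. TXNIP, which restrains glucose uptake, rose from 84.3, 123 and 94.3 to 254, 384 and 282 CPM. CDKN1B, which encodes p27, had a log2FC of 0.69 (78.9, 76.3 and 68.4 against 120, 117 and 123 CPM) and GADD45A one of -0.98, so these members did not pass. GADD45A was called lower without replicate 3 (-1.07).

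The cell death genes diverged within each class. BMF (ENSG00000104081, chromosome 15, 40087890 to 40108892), a BH3-only activator of apoptosis that is kept at the cytoskeleton in healthy cells, rose from 4.46, 4.4 and 3.55 to 99.3, 98.6 and 103 CPM. The rise was 24.3-fold (log2FC 4.60, SE 0.10, adjusted p 3.7e-19). BBC3 (PUMA) rose from 6.38, 5.95 and 6.69 to 23.7, 18.4 and 23.6 CPM. Within the same list of 8, PMAIP1 (NOXA) fell by 1.35 and BID by 1.16 on the log2 scale, and BCL2L11 (BIM) had a log2FC of 0.64. BID lost its call with library size alone (-0.90), and the span of BCL2L11 is wholly covered by other genes. BCL2, the founding survival gene, fell from 6.65, 7.82 and 7.97 to 1.31, 1.27 and 1.22 CPM (log2FC -2.55). BCL2L1 (BCL-XL) fell by 1.15 (-0.89 and no call with library size alone), and MCL1 was at -0.39. Of the 6 BCL2 survival and effector genes 2 fell and 1 rose (0 without replicate 3).

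TNFSF10, the death ligand TRAIL, rose and its receptor gene TNFRSF10A fell. The ligand (chromosome 3, 172505508 to 172523507) went from 13.3, 9.19 and 7.06 to 200, 151 and 154 CPM (log2FC 4.11, SE 0.10). TNFRSF10A, which encodes death receptor DR4, went from 28.1, 31.1 and 32.4 to 3.45, 3.86 and 3.27 CPM (log2FC -3.12, SE 0.10). The second death receptor, TNFRSF10B, was at 67, 66.6 and 62.6 against 30.4, 30.6 and 33.9 CPM. Its log2FC of -1.05 lay just past the limit, and the call was lost under 6 of the 10 alternatives run, with values of -1.05 to -0.79. In the list of 20 death receptors and caspases 3 rose and 5 fell (3 with library size alone and 3 without replicate 1). Over all genes tested 18.9% were called higher and 11.8% lower.

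DNA replication genes fell almost without exception. Of 46 origin licensing and fork genes, 40 fell and 0 rose, with a median log2FC of -1.83 and a range from -3.62 to -0.33. MCM10 (ENSG00000065328, chromosome 10, 13161554 to 13211104), which helps to activate the replicative helicase, went from 67.5, 75 and 71.1 to 5.59, 5.74 and 6.02 CPM (log2FC -3.62, SE 0.08, adjusted p 3.7e-19). CDC6, the origin licensing factor, went from 395, 407 and 435 to 46.4, 47.8 and 55.8 CPM. In both genes the treated libraries lay close together and far below the untreated ones. The helicase subunit MCM6 fell by 2.94, the helicase partner CDC45 by 3.08 and the sliding clamp PCNA by 2.11 on the log2 scale. RPA3, a subunit of the single-strand binding complex whose span is largely covered by another gene, had a log2FC of -0.33 with overlapping groups. Under scaling by library size alone 37 of the 46 fell.

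Genes that supply and guard replication were lower too. Of 27 nucleotide synthesis genes 23 fell (median log2FC -1.30), led by RRM2, the small subunit of ribonucleotide reductase, which went from 297, 364 and 393 to 25.7, 30.3 and 38.1 CPM and whose span is largely covered by other genes. CTPS1, which makes CTP, went from 135, 134 and 139 to 17, 17.4 and 21.4 CPM. Of 26 homologous recombination and Fanconi genes 20 fell, among them the exonuclease EXO1 (log2FC -2.94) and BRCA1 (90.6, 95.8 and 86.9 against 22.6, 25 and 25.3 CPM). Of 21 genes of chromatin assembly and maintenance 13 fell, with the maintenance methyltransferase DNMT1 at 347, 386 and 384 against 81.9, 85.4 and 87.7 CPM. No gene of these lists rose.

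Mitotic genes fell as well, but by less. Of 52 mitosis and kinetochore genes 37 fell and 0 rose (median log2FC -1.21), and with library size alone the count was 23. MYBL2, the transcription factor of the late cell cycle, went from 292, 261 and 332 to 46.1, 38.3 and 54.8 CPM (log2FC -2.67). CDK1, the mitotic kinase, went from 183, 180 and 187 to 44.2, 48.6 and 63.4 CPM. TOP2A had 857, 880 and 992 CPM before and 351, 403 and 419 CPM after treatment (log2FC -1.22). Its call was lost with library size alone (-0.96). Cyclin B1 (CCNB1) had a log2FC of -1.02, and its call was lost under 6 of the 10 alternatives, with values of -1.02 to -0.76. KIF20A, a kinesin of cytokinesis, had a log2FC of -0.32.

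Among cell cycle regulators the falls outnumbered the rises. Of 12 genes of the E2F and RB family 7 fell and 1 rose. E2F1 went from 113, 123 and 117 to 20.3, 21.1 and 25.1 CPM and E2F2 from 23.6, 25.6 and 25 to 4.17, 3.82 and 5.02 CPM, whereas the pocket protein gene RBL2 (p130) rose from 52.8, 47.8 and 38.9 to 95.6, 96.7 and 92.5 CPM. RBL2 passed with a log2FC of 1.04, and of 0.94 without replicate 3, which is under the limit. Among 11 G1 cyclins and CDK inhibitors, CDKN1C (p57) alone rose, from 3.98, 4.29 and 4.86 to 25.8, 27.8 and 37.3 CPM, and CCNE1 (cyclin E1) went from 23.2, 24.8 and 21.9 to 4.17, 4.09 and 4.13 CPM. CDKN1A (p21) was at a log2FC of -0.87. TERT, the catalytic subunit of telomerase, fell from 12.3, 15.1 and 15.9 to 0.566, 0.502 and 0.898 CPM (log2FC -4.46).

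Promoters were searched for short motifs on both strands in the window from 250 bases before to 50 bases after the start of transcription, in RefSeq promoters of GRCh38.p14 matched by symbol to 12530 of the 19078 genes tested. An E2F site, spelled TTTCCCGC or TTTGGCGC (other strand GCGGGAAA or GCGCCAAA), was present in 5.59% of the 1555 promoters of genes called lower (95% exact binomial interval 4.51% to 6.86%) and in 1.32% of the 1963 promoters of genes called higher (0.867% to 1.93%). Among all genes tested the share was 3.4%, and among all 27305 promoters 2.31%. The FOXO site GTAAACA (other strand TGTTTAC) was in 2.06% of promoters of lower and 4.28% of higher genes, against 2.57% of those tested. The E-box CACGTG, its own reverse complement, was in 11.3% and 7.74%, against 9.4%. The CRE TGACGTCA was in 3.79% and 1.38%, against 3%, and the AP-1 site TGACTCA, read on both strands, in 4.12% and 4.94%, against 3.54%. A CHR element (TTTGAA or TTCAAA) was in 13.8% and 11.2% against 10.5%, and a CCAAT box (CCAAT or ATTGG) in 37.9% and 35.3% against 35.9%. No spelling contains another. These shares describe letters in a window, with no test.

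The 250 bases before the start are shown for the protein-coding genes with the furthest fall that hold an E2F site there and a mean log2 CPM above 1, to let the site be seen in its sequence context. CDCA7 (log2FC -3.78, chr2:173354622-173354871, plus strand) encodes a chromatin remodeling cofactor, GINS2 (-3.38, chr16:85688955-85689204, minus strand) a helicase subunit, CDC25A (-3.23, chr3:48188418-48188667, minus strand) the phosphatase that activates cyclin-dependent kinases, and AEN (-3.22, chr15:88621090-88621339, plus strand) a nuclease. Coordinates are on GRCh38.p14, each sequence reads 5′ to 3′ on the strand of the gene, and capitals mark the E2F site.
CDCA7: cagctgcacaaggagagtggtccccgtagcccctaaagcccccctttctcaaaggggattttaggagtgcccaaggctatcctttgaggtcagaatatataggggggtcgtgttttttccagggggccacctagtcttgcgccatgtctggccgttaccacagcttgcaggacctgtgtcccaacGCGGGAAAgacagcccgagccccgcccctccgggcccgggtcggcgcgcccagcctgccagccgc
GINS2: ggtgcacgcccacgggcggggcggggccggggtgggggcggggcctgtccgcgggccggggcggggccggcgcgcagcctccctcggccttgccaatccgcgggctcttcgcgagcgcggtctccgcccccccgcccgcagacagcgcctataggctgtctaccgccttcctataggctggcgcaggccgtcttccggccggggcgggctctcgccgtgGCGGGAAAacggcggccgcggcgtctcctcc
CDC25A: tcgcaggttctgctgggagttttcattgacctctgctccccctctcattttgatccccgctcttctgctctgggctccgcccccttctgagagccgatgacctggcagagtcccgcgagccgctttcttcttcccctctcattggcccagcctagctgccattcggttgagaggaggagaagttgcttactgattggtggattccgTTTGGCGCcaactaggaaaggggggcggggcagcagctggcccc
AEN: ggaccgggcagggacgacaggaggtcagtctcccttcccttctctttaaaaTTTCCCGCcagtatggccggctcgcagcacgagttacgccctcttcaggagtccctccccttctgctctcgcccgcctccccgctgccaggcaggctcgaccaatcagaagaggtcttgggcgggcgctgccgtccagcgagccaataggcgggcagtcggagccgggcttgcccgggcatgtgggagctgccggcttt
The first letter of the site is 65 bases before the start in CDCA7, 31 in GINS2, 44 in CDC25A and 199 in AEN.

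For contrast, promoters of genes that rose were taken by the same limits, with an E-box or FOXO site. NOD2 (log2FC 3.08, chr16:50696698-50696947, plus strand), a sensor of bacterial wall fragments, and CCNG2 (2.59, chr4:77156957-77157206, plus strand) both hold an E-box, in capitals, which starts 124 and 30 bases before the start.
NOD2: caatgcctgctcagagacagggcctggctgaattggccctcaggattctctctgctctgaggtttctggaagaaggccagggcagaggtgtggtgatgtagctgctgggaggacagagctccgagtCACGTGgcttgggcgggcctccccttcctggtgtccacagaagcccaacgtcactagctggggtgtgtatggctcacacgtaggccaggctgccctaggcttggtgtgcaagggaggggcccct
CCNG2: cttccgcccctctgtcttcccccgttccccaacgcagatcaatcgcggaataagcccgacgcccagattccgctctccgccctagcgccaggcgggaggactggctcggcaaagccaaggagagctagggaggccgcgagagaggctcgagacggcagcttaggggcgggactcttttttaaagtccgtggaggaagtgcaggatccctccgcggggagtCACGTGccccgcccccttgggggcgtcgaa
No FOXO site of the spelling searched lies in these windows.

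Genes of ribosome production fell, while 1 ribosomal protein gene was called. Of 45 ribosome biogenesis genes 40 fell and 0 rose, with a median log2FC of -1.55. DDX21, an RNA helicase of the nucleolus, went from 477, 499 and 611 to 94.9, 107 and 119 CPM (log2FC -2.30), and nucleolin (NCL), one of the most abundant nucleolar proteins, from 1838, 1826 and 2104 to 518, 533 and 601 CPM. Among 15 RNA polymerase I factors 8 fell. TCOF1, which loads the polymerase onto ribosomal DNA, went from 289, 295 and 316 to 52.7, 52 and 53.2 CPM. Of 69 cytosolic ribosomal proteins 1 was called. The median of these 69 was a log2FC of -0.12, which became 0.14 with library size alone, so that no direction is given for them.

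Protein handling and central metabolism were lower in part. Chaperonin and heat shock genes fell in 16 of 22 cases, for example the chaperonin subunit CCT2 (501, 496 and 526 against 165, 168 and 199 CPM), and 8 of them with library size alone. HSPB1, a small heat shock protein, was the only one of that list to rise, from 570, 377 and 467 to 1353, 767 and 1175 CPM. Of 36 nuclear pore and export genes 21 fell (12 with library size alone), and of 33 translation initiation factors 9. Of 20 cytosolic tRNA synthetases 8 fell, with 4 under library size alone, glmTreat at a fold change of 2 or at least 10 counts in every library, and 5 without replicate 1. Of 28 proteasome subunits 8 fell, but 1 with library size alone. Respiratory chain subunits had a median log2FC of -0.30 with 1 of 58 called.

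Glycolysis genes fell in 12 of 22 cases and 0 rose. HK2, the hexokinase typical of tumor cells, went from 96.6, 108 and 113 to 13.4, 13 and 13.4 CPM (log2FC -2.99). PKM, pyruvate kinase, went from 5547, 5094 and 5056 to 1370, 1231 and 1319 CPM (log2FC -2.00, adjusted p 2.1e-14). LDHA, which makes lactate, went from 710, 650 and 769 to 169, 160 and 192 CPM. All of these were without overlap, and 7 of the 22 were called lower with library size alone. Some lipid genes were lower as well. SCD, the desaturase of fatty acid synthesis, went from 302, 327 and 290 to 61.4, 71.6 and 64.2 CPM. In all, 7 of 24 cholesterol synthesis and uptake genes fell and 1 rose (TM7SF2, log2FC 1.58), and 6 of 11 fatty acid synthesis genes fell (2 with library size alone). PDK4, which turns pyruvate away from oxidation, rose from 9.82, 9.87 and 5.25 to 59.1, 49.3 and 32.6 CPM.

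**Figure D2:**
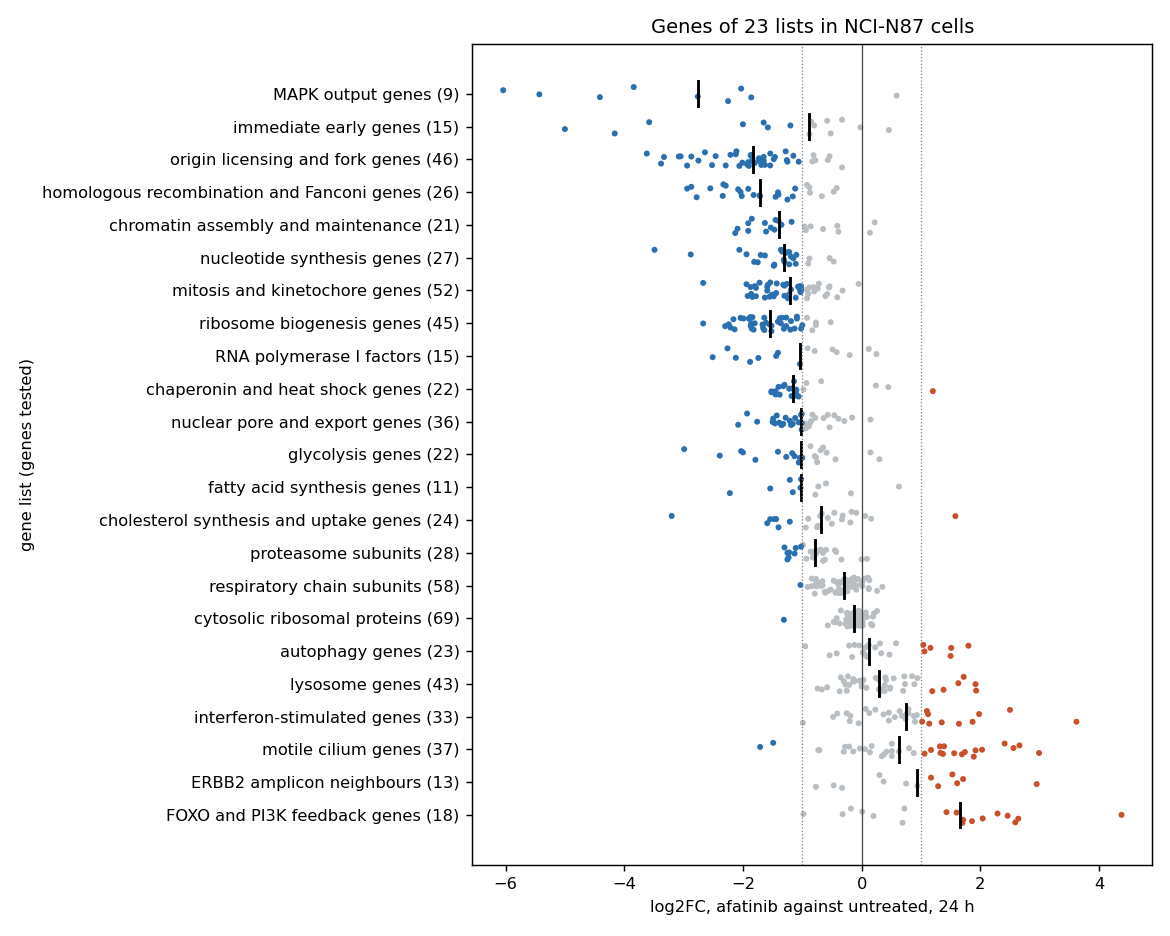
Log2FC (afatinib against untreated, 24 h) of each tested gene in 23 lists, with the number tested in parentheses, orange for genes called higher, blue for called lower, grey for not called, black bars at the list median and dotted lines at the limits of 1 and -1. Replication, repair and ribosome biogenesis genes lie almost wholly below 0, ribosomal proteins sit around 0 (median -0.12, and 0.14 with library size alone), and FOXO and PI3K feedback genes have a median of 1.65.

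Lysosome and autophagy genes were mostly not called. Of 43 lysosome genes 6 rose and 0 fell. Of protein-coding genes tested 14.4% were called higher and 13.2% lower, and of all genes tested 18.9% and 11.8%. Among the 6 were the protease CTSS (24, 19.2 and 17.9 against 84.4, 71.2 and 75.6 CPM) and progranulin (GRN, log2FC 1.63). Of 23 autophagy genes 6 rose and 0 fell, to be read against the same shares. GABARAPL1, an ATG8 protein, went from 39.7, 33.6 and 32.9 to 123, 116 and 132 CPM. The ATG8 gene MAP1LC3B had a log2FC of -0.54. ULK1, the kinase that starts autophagy, rose from 64.8, 65.5 and 45.8 to 166, 172 and 160 CPM.

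Epithelial genes moved in both directions. MUC5AC, the mucin of gastric surface cells, fell from 142, 181 and 123 to 12.4, 16.6 and 11.6 CPM (log2FC -3.45), while MUC5B rose from 9.44, 7.28 and 5.89 to 40.2, 36.2 and 30.6 CPM. Of 14 gastric mucins and trefoil factors 6 rose and 3 fell. PSCA, a small surface antigen of gastric epithelium, rose by a log2FC of 3.17, with untreated values of 31.7, 11.4 and 5.96 and treated values of 195, 108 and 84.3 CPM, and most of its span is shared with other genes. CDX2, the factor of intestinal identity, rose from 61.2, 54 and 78.6 to 162, 157 and 222 CPM. Among keratins 1 of 17 rose and 5 fell: KRT6A, of the wound epidermis, fell by 2.92 on the log2 scale, KRT4, of stratified epithelium, rose by 2.63, and KRT19 stayed at 5391, 4627 and 4825 against 5303, 4714 and 5281 CPM.

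Interferon-stimulated genes rose in 10 of 33 cases and fell in 0 (18.9% and 11.8% over all genes tested), with a median log2FC of 0.74. A further 9 members, among them IFIT1, IFIT3 and OAS2, had low or 0 counts and were not tested, so nothing is said of them. With library size alone 16 rose, and under glmTreat at a fold change of 2, which tests against that limit, 6 rose. GBP2, a guanylate-binding protein, went from 15.5, 7.06 and 6.71 to 148, 103 and 93.5 CPM (log2FC 3.62), and STAT2, which carries the interferon signal, from 53.5, 53.6 and 38.3 to 168, 192 and 168 CPM. Chemokines went the other way. CXCL8 (interleukin-8) fell by 4.72 on the log2 scale, to 26, 14 and 7 counts in treated against 505, 372 and 179 in untreated libraries. CXCL5 fell from 144, 151 and 205 to 16.8, 15.1 and 23.2 CPM, and 5 of 8 chemokines fell. CCL28 was called higher on low counts, 6, 10 and 6 in untreated against 38, 14 and 23 in treated libraries. Its log2FC was 1.48, and 0.97 without replicate 1, and the call was also lost under glmTreat.

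Genes of motile cilia, the beating appendages of airway and oviduct cells, rose in 16 of 37 cases and fell in 2. DNAI1, an outer dynein arm chain, went from 4.72, 3.75 and 3.96 to 21.1, 22.6 and 22.3 CPM, and TEKT1, a tubule-binding filament protein, from 0.582, 0.501 and 0.985 to 5.04, 4.68 and 6.5 CPM. FOXJ1, the master factor of these genes, was at 177, 190 and 245 against 153, 163 and 212 CPM, with overlapping groups and a log2FC of -0.21 (0.05 with library size alone). MCIDAS and TP73, upstream in multiciliated cells, fell by 1.49 and 1.71.

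Apart from the lists, the 15 largest rises among protein-coding genes were led by GABRP (chromosome 5, 170763350 to 170814047), a GABA receptor subunit, which had 3, 2 and 3 counts in untreated and 1029, 441 and 413 in treated libraries. The ratio of TMM-normalized counts was 199, with an exact counting interval from 101 to 462. Part of its span overlaps another gene. BNIP5 had 16, 12 and 9 against 1222, 685 and 675 counts (ratio 59.1, 42.8 to 84.1). LDLRAD1, a small membrane protein, went from 1.04, 0.98 and 0.664 to 48.5, 56.3 and 44.1 CPM, and BCAS1 from 10.1, 5.08 and 5.57 to 151, 119 and 111 CPM. ALPG, a placental-type alkaline phosphatase, rose from 80.1, 31.5 and 57.9 to 1243, 760 and 1021 CPM. In BNIP5, BCAS1 and ALPG replicate 1 was the highest of its group in untreated and treated cells alike. The remaining rises were NOS2 (4.19), SCTR (4.07), CSDC2 (3.91), SELENBP1 (3.88), GRAMD1B (3.74), CSPG4 (3.72) and ABCG1 (3.71), besides BMF, PIK3IP1 and TNFSF10.

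Among the 15 largest falls, HAS2, which synthesizes hyaluronan, had 770, 706 and 722 counts in untreated and 18, 16 and 11 in treated libraries (log2FC -5.84). NAV3, a microtubule-guiding protein, went from 29.5, 32.5 and 28.3 to 1.75, 1.7 and 1.17 CPM. TNS4, a tensin that links to EGFR and MET at focal adhesions, went from 392, 396 and 376 to 29.1, 22.5 and 20.3 CPM. The receptors PTGER2 (-4.00) and NTSR1 (-3.82) and the growth factor BMP6 (-3.77) also belong here, with DUSP4 (-3.84) and CDCA7 (-3.78).

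Measured per kilobase of exon, which allows levels of different genes to be compared, the largest gain was that of ALDH1A1, an aldehyde dehydrogenase. Its level rose from 915, 891 and 888 to 3081, 3432 and 4090 CPM (log2FC 1.97). GRB7 and ERBB2 came next, although the log2FC of ERBB2 is small, followed by HSPB1, ALPG, PSAP, JUP, FTH1, MSLN and LOXL4. Of these 10, the log2FC of ERBB2, PSAP (0.72), JUP (0.61), FTH1 (0.28) and MSLN (0.91) did not reach 1, and FTH1 overlapped between groups. The largest losses were those of KRT8, from 11883, 10023 and 11456 to 4191, 3672 and 5007 CPM, and KRT18, from 3359, 2971 and 3423 to 946, 704 and 1010 CPM. YBX1, HSP90AB1, ACTB, TXN, ACTG1, PKM, GAPDH and HSPA8 followed. ACTB, often used as a reference gene, fell by 1.37 on the log2 scale, and GAPDH was at -0.79.

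**Figure D3:**
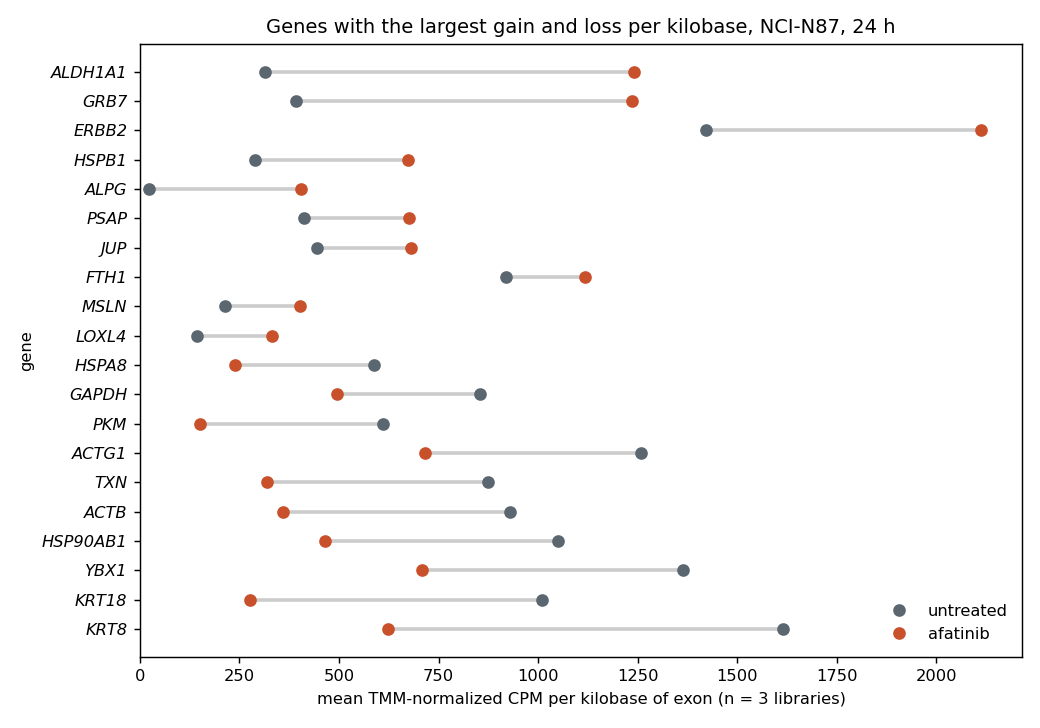
Mean TMM-normalized CPM per kilobase of exon (n = 3 libraries) of the 10 genes with the largest gain and the 10 with the largest loss, untreated in grey and afatinib-treated in orange. ERBB2 has the highest treated level, and KRT8 the largest loss.

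Calls were also counted by the type and level of the gene. Of 14197 protein-coding genes 14.4% were called higher and 13.2% lower, whereas of 1692 lincRNAs 38.4% were higher and 6.86% lower. Antisense genes (1269 tested) were higher in 32.6% and lower in 7.09%. When protein-coding genes were placed in 4 groups of nearly equal size by their mean log2 CPM, the share called higher went from 33.3% in the lowest group to 2.87% in the highest, and the share called lower from 7.66% to 17.4%. Their median log2FC went from 0.54 to -0.38. A gene with few counts in untreated cells could enter the test through the treated libraries, and 1520 of the 3608 higher calls, against 357 of the 2260 lower calls, did not have 10 counts in every 24 h library, so that the shares by level and type are a description only. Strand use in counting is not given in the sources used here, so antisense values and those of overlapping partners cannot be told apart.

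**Figure D4:**
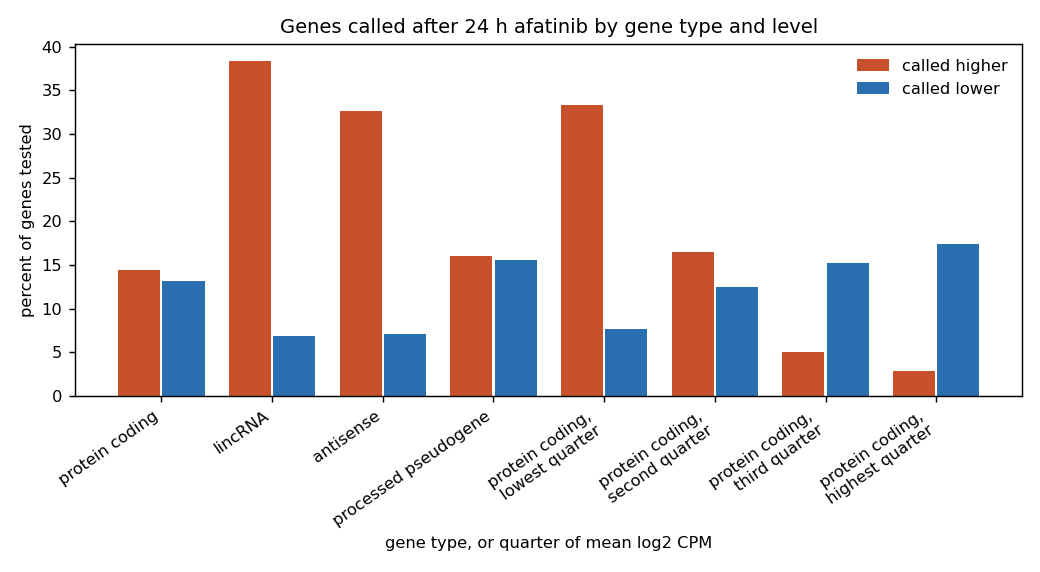
Percent of genes tested that were called higher (orange) and lower (blue) after 24 h of afatinib, for 4 gene types and for protein-coding genes in 4 groups by mean log2 CPM. Upward calls outnumber downward calls among lincRNAs (38.4% against 6.86%) and in the lowest group, and the reverse holds in the highest group (2.87% against 17.4%).

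The comparison with 4 h asked which changes had already appeared early. After 4 h 469 genes were higher (2.46%) and 262 lower (1.37%), 3.83% of those tested. The change at 24 h exceeded that at 4 h by a log2 difference above 1 for 1931 genes (10.1%) and lay below it by as much for 1383 (7.25%), 17.4% together, by the test of that difference. With library size alone these counts were 2598 and 942, and the upward share went from 58.3% to 73.4%. MAPK output genes were lower in 8 of 9 cases at 4 h too (median log2FC -2.01), and 2 of them, SPRY4 and ETV5, fell further. DUSP6 had log2FC values of -4.71 at 4 h and -5.43 at 24 h, MYC of -2.11 and -2.00. BMF was at 3.59 and 4.60, a difference that passed, and BBC3 at 1.77 and 1.78.

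Replication genes showed another course. At 4 h 0 of 46 origin licensing and fork genes were called, with a median log2FC of -0.07, where edgeR called 3.83% of all genes. The difference between the time points passed for 39 of the 46, with background 7.25% for differences in this direction. MCM10 was at -0.53 after 4 h and -3.62 after 24 h, and E2F1 at 0.10 and -2.41. For mitosis genes the median was 0.15 at 4 h, 1 gene was higher, and 46 of 52 differed between the time points. Ribosome biogenesis lay between, with a median of -0.52 and 3 of 45 lower at 4 h, among them LYAR (-1.29), and 17 of 45 differing. Interferon-stimulated genes had 1 of 33 higher at 4 h, and the difference passed for 8.

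**Figure D5:**
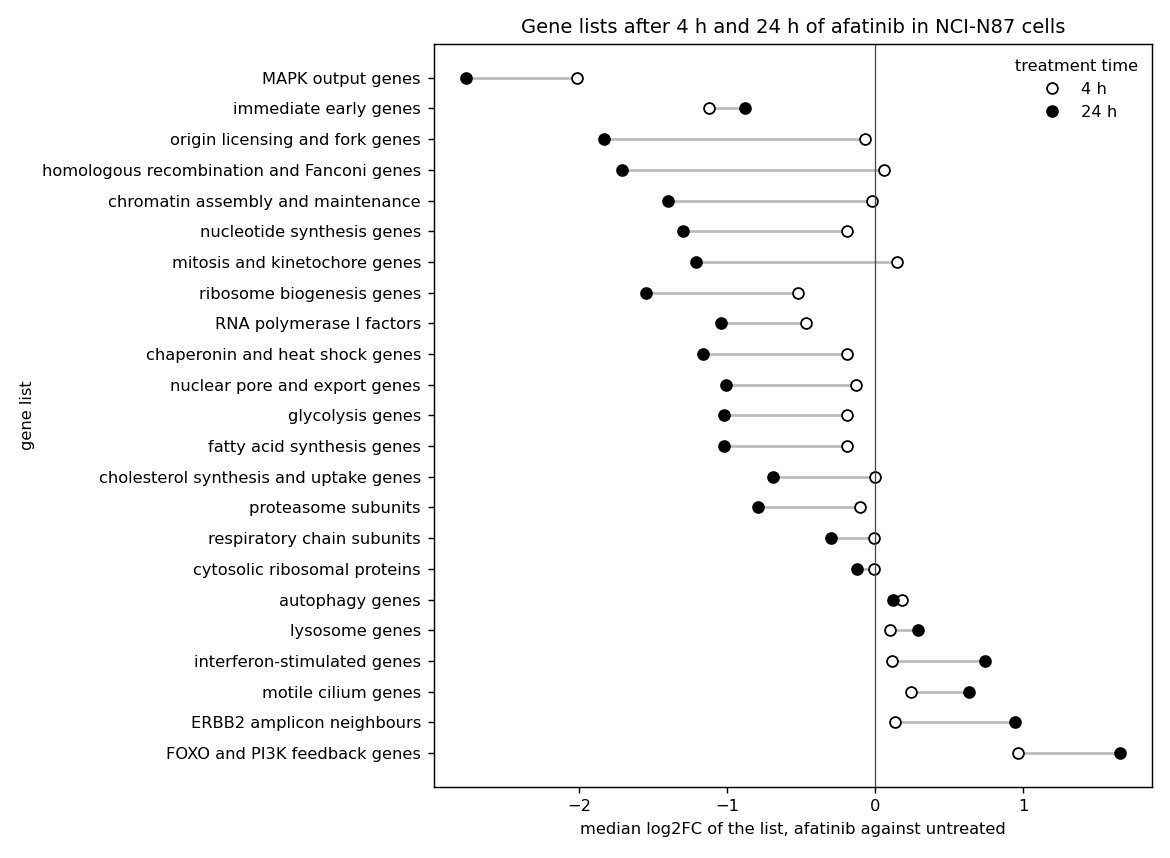
Median log2FC of 23 gene lists after 4 h (open circles) and 24 h (filled circles) of afatinib in NCI-N87 cells, each time point against its own untreated cells. MAPK output and FOXO and PI3K feedback lists are already displaced at 4 h (-2.01 and 0.96), while replication genes move from -0.07 to -1.83. The ribosomal protein median changes sign with library size alone.

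The same drug was given for the same time to the other lines. In a joint fit of 21743 genes, MKN7 had 2245 genes higher (10.3%) and 617 lower (2.84%), 13.2% together. MKN1 had 738 higher (3.39%) and 246 lower (1.13%), 4.53% together, and without replicate 3 it had 330 higher and 152 lower. By interaction contrasts, the afatinib effect differed between NCI-N87 and MKN7 for 2707 genes (12.4%, with 6.7% higher and 5.75% lower in NCI-N87). Without replicate 2 this balance turned, with 1086 genes higher and 1285 lower. Between NCI-N87 and MKN1 it differed for 3664 genes (16.9%, with 11.1% higher and 5.8% lower in NCI-N87), and without replicate 2 the higher genes numbered 1591 and the lower genes 1383. MAPK output fell in each line, in 7 of 9 genes in MKN7 (EPHA4 rose) and 8 of 9 in MKN1, and SPRY4 had log2FC values of -5.00 and -4.37 there. Of the origin licensing and fork genes 2 fell in MKN7 (median -0.65) and 0 in MKN1 (median -0.33), and the difference from NCI-N87 passed for 27 and 36 genes, all lower in NCI-N87. MCM10 was at -0.86 in MKN7 and -0.66 in MKN1. Ribosome biogenesis differed in the same direction for 10 and 21 genes.

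FOXO and PI3K feedback genes rose in 5 cases in MKN7 and in 1 in MKN1, and the effect in NCI-N87 was larger for 5 and 9 of them and smaller for 1 and 0. PIK3IP1 had log2FC values of 1.54 in MKN7 and 0.75 in MKN1. BMF was at 1.30 and 2.01 and TNFSF10 at 1.26 and 1.59, against 4.60 and 4.11 in NCI-N87 cells. TNFRSF10A was at -2.21 in MKN7 and -0.52 in MKN1. PKM, which fell in NCI-N87 cells, was at -0.27 and -0.26. ALDH1A1 was at -0.10 and -0.06. In the cholesterol list the afatinib effect was lower in NCI-N87 than in MKN7 for 9 genes and higher for 0, and lower than in MKN1 for 11 and higher for 1.

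The addition of trastuzumab to afatinib was compared with afatinib alone in NCI-N87 cells at 24 h. No gene passed (0% of 19078) in edgeR, with 652 genes at an unadjusted p below 0.05, and DESeq2 likewise called 0, with 560. The log2 difference was 0.15 for SPRY4, -0.08 for BMF, -0.08 for MCM10 and -0.11 for ERBB2. This count of 0 does not show that the treatments act alike.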

How the data were processed

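RNA of NCI-N87 cells was sequenced paired end after purification of mRNA and directional library preparation. The authors deposited raw counts per Ensembl gene identifier, without normalization, for each library. The submitters' processing notes name Trim Galore, STAR and hg38, while the counting tool and its strand setting are not given in the sources used here. Gene types and spans were taken from GENCODE release 29 on GRCh38, in which 8404 of 65217 identifiers (0.0457% of counts) were not found. Of protein-coding genes whose span is wholly covered by other genes, 90% had 0 counts in the 6 libraries, against 3.73% of those partly covered and 13.6% of those not covered, so list members with low or 0 counts (185 in all) were left out of the tests and say nothing about expression.

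Counts of all 24 NCI-N87 libraries were fitted in R 4.3.3 with edgeR 4.0.16 (TMM, filterByExpr at 10 counts and a total of 15, glmQLFit, glmQLFTest), with 1 mean per treatment and time and the replicate number within each time as a block. Same-numbered libraries of different treatments at 24 h deviated together from their group means in all 18 pairs (r from 0.15 to 0.54, mean 0.35), and the numbers come from the labels. The mean r of other pairs (-0.17) is largely set by centring each group on its own mean, so it is no separate evidence for the pairing. Calls needed a p.adjust (Benjamini-Hochberg) under 0.05 together with a log2FC of more than 1 in size. Where separate cultures are not stated, p-values measure the spread between these libraries only. Cell lines were compared in 1 fit of the 45 libraries at 24 h of NCI-N87, MKN7 and MKN1, with all treatments of these lines included. Levels are TMM-normalized CPM. Named genes are members of 69 lists, the 15 protein-coding genes with the largest rise and fall (mean log2 CPM above 1, same direction in 3 pairs), the 10 largest gains and losses per kilobase of exon, and for each difference the 5 largest on either side. Some list members are counted but not reported by name here. The libraries and lists were chosen with earlier results of these data known. Alternatives were no block, only the 6 libraries, DESeq2 1.42.0, omission of the TMM factors, omission of the filter, a minimum of 10 counts per library, glmTreat at a fold change of 2, and leaving out each replicate. Intervals are exact at 95% and cover counting error only. The fit was also run on simulated counts in which few genes changed, equally up and down, so that a shift over many genes was not tested there. Python 3.11.15 with matplotlib 3.10.9 was used for the figures.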

Additional observations from a re-analysis of the deposited data

Results flagged for a closer look

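The effect of afatinib on NCI-N87 cells differed between 24 h and 4 h for 1931 genes upwards and 1383 downwards, between NCI-N87 and MKN7 cells for 1456 upwards and 1251 downwards, and between NCI-N87 and MKN1 cells for 2403 upwards and 1261 downwards. Each of these was a test of the difference itself, an interaction contrast in edgeR with adjusted p below 0.05 and a log2 difference above 1 or below -1. Without replicate 2 the counts against MKN7 were 1086 and 1285 and those against MKN1 1591 and 1383. Values below are such log2 differences.

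Between 24 h and 4 h, the largest were GABRP (7.76), LINC00486 (5.73), ALPG (3.54), BCAS1 (3.52) and CPT1C (3.33) on the upper side. TERT (-3.93), MYB (-3.31), CDCA7 (-3.31), BMP6 (-3.24) and CLSPN (-3.22) were the largest on the lower side. MYB, a progenitor factor, had 8.15, 8.97 and 8.11 CPM in untreated and 1.43, 0.879 and 0.86 CPM in treated cells at 24 h. CLSPN encodes claspin, a checkpoint adaptor at the replication fork, and went from 53.2, 65.3 and 72.5 to 6.24, 6.25 and 6.5 CPM.

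Between NCI-N87 and MKN7, the effect was higher in NCI-N87 for GABRP (7.33), GRAMD1B (5.80), NOS2 (5.77), LINC00486 (5.42) and MAP10 (5.36). MAP10 was at a log2FC of 0.62 in NCI-N87 and -4.65 in MKN7, so that most of this difference lies in MKN7. The effect was lower in NCI-N87 for HAS2 (-7.02), MUC5AC (-4.16), LINC03033 (-4.04), LINC02300 (-4.02) and WNT10B (-4.01). HAS2 fell in NCI-N87 cells while its log2FC was 1.28 in MKN7 and 0.13 in MKN1.

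Between NCI-N87 and MKN1, the effect was higher for GABRP (7.71), ENSG00000272622 (4.94), BNIP5 (4.86), TP53AIP1 (4.67) and CSDC2 (4.60). It was lower for HAS2 (-5.88), ENSG00000247844 (-5.39), NAV3 (-4.67), LINC02300 (-4.46) and AKR1B10 (-4.35). AKR1B10, an aldo-keto reductase of the NRF2 program, went from 10.4, 9.43 and 4.74 to 0.955, 0.808 and 0.554 CPM in NCI-N87 cells and had a log2FC of 1.06 in MKN1.

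LINC00486 rests on 1 library. It had 25, 20 and 2164 counts in treated against 13, 16 and 10 in untreated libraries, and without replicate 3 its log2FC was 0.42, its difference between time points 0.51 and its difference from MKN7 -3.83. It also did not pass without the replicate block (log2FC 5.63) or in DESeq2 (1.07). GABRP kept the sign of its differences without replicate 1, at 4.95 between time points, 6.83 against MKN7 and 7.26 against MKN1, but no longer passed, and against MKN7 it also did not pass without replicate 2 (7.70) or without the replicate block (7.28).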

How the results depend on the processing

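The number of genes higher after 24 h was 2382 with at least 10 counts in every library and 2166 with glmTreat at a fold change of 2, and the number lower was 1420 with library size alone. No gene called here was called in the opposite direction under any alternative run for the 24 h comparison. Without the replicate block, 3457 genes were higher and 2192 lower, and no count over all genes moved by over 1.5 times without the block. Leaving out each replicate gave 3450 to 3622 higher and 2050 to 2245 lower. Trastuzumab + afatinib against afatinib gave 1 gene without a filter on low counts. Of 138 counts of list members called higher or lower, 32 moved by over 1.5 times with library size alone (by 1 to 14 genes), 24 with at least 10 counts in every library, 23 with glmTreat, 4 without a filter, 3 with only the 6 libraries, 1 without the replicate block (Wnt target and stem cell genes higher, 5 to 3) and 0 in DESeq2. Leaving out a replicate moved 7 to 12 of them, each by 1 to 3 genes. Of 160 named genes, 144 stayed on the same side of the limits under every alternative that tested them. A gene left out by an alternative counts as unchanged there, as GABRP does with at least 10 counts in every library. With library size alone the log2FC turned positive for FOXJ1 (0.05). The difference of LINC00486 from MKN7 ranged from -3.83 to 8.21 on leaving out a replicate. E2F sites in the 250 bases before the start alone were in 4.18% of lower, 1.12% of higher and 2.84% of tested genes. The cause of these shifts was not tested. Depth limits genes near the floor of 3 counts in a library, as GABRP in untreated cells, and span overlap limits genes nested in others.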

Other observations

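Drug handling and redox genes moved in both directions in NCI-N87 cells. CYP1A1, a monooxygenase of xenobiotic metabolism, rose from 4.36, 3.01 and 3.6 to 47.3, 35.3 and 37.1 CPM (log2FC 3.46). Of 23 ABC transporters and drug-metabolizing genes 6 rose and 4 fell, where 18.9% of all genes tested were called higher and 11.8% lower. Among the 4 were the efflux pump genes ABCC3 (544, 546 and 368 against 196, 193 and 153 CPM) and ABCG2 (log2FC -2.68). Of 18 NRF2 and glutathione genes 6 fell and 0 rose, with TXNRD1, thioredoxin reductase, going from 1009, 1211 and 1160 to 339, 416 and 422 CPM. TXNRD1 had a log2FC of 1.06 in MKN7 cells.

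Adhesion and matrix genes were lower in several lists. Of 12 YAP target genes 7 fell and 0 rose, with tissue factor (F3) at 111, 108 and 104 against 10.7, 8.08 and 9.61 CPM. Of 16 integrin subunits 5 fell and 1 rose (0 without replicate 2 or 3), ITGA6, a laminin receptor subunit, going from 218, 205 and 186 to 44.5, 38.3 and 35.4 CPM. CEMIP, which degrades hyaluronan, fell from 60.9, 64.1 and 48.3 to 9.06, 9.06 and 5.79 CPM alongside HAS2, while 1 of the 10 hyaluronan genes rose. FGFR2 was the only one of 17 other receptor kinases and insulin pathway genes called higher (2 were without replicate 1 or 2, and 3 with library size alone), going from 13.2, 16 and 13.9 to 57.2, 65.2 and 59.2 CPM, and 4 fell. MET, the HGF receptor, fell from 329, 345 and 360 to 148, 150 and 159 CPM, a call that was lost with library size alone (-0.92).

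Counts of differentiation, cilium and antigen presentation lists are read against the 18.9% of all genes called higher and the 11.8% called lower. In intestinal differentiation genes 7 of 21 rose and 1 fell, with 4 higher under a minimum of 10 counts in every library and 2 lower without replicate 3. In secretory and goblet cell genes 6 of 18 rose and 1 fell, and 11 rose with library size alone. Wnt target and stem cell genes rose in 5 and fell in 3 of 17 cases, with 3 higher without the replicate block and 1 under a minimum of 10 counts. Shares of rises near that of all genes were seen in claudins and tight junction genes (4 of 23 higher, 2 lower), in intraflagellar transport and Bardet-Biedl genes (6 of 31 higher, 0 lower), in gut lineage transcription factors (3 of 17 higher, 1 lower, and 3 lower without replicate 1 and 2 without replicate 3), and in fatty acid oxidation and PPAR genes (3 of 18 higher, 1 lower, and 5 higher with library size alone). Class I antigen presentation also lay there, with 4 of 21 higher and 1 lower (7 higher and 0 lower with library size alone, 3 lower without replicate 3). Its member HLA-E was at 96.6, 80 and 83.2 against 192, 166 and 181 CPM, while HLA-B, TAP1 and TAP2 had 0 counts and were not tested. Class II had 2 of 9 higher, and 4 without replicate 1. Of 7 cholesterol efflux and LXR genes 1 rose (2 without replicate 2 or 3), of 5 TXNIP and arrestin-domain genes 1, and of 2 CEACAM and lipocalin genes 1.

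The remaining lists were mixed or lower, where 11.8% of all genes tested were called lower and 18.9% higher. Counts for interleukins and receptors, BMP and ID genes and NF-kB genes lay near or under these shares. Falls against rises were 5 and 2 of 24 p53 target genes, 5 and 3 of 20 Notch genes, 6 and 1 of 19 ATF4 and amino acid genes, 5 and 0 of 17 ER chaperones (2 lower with library size alone, 3 without replicate 1), and 4 and 1 of 18 epithelial to mesenchymal transition genes. Protease and matrix remodelling genes had 4 lower and 2 higher of 16 (2 lower without replicate 2), interleukins and receptors 3 and 3 of 25, BMP and ID genes 2 and 1 of 13 (1 lower without replicate 3, 0 with library size alone), and NF-kB subunits and feedback genes 1 and 1 of 15. None of 7 pentose phosphate genes was called. Of 12 housekeeping genes 3 fell, of 7 epithelial markers 2. Among the markers of other cell types, 1 of 4 fibroblast, 2 of 6 endothelial and 2 of 5 leukocyte genes tested were called higher and 1 endothelial gene lower.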
